A study of Mus musculus with 12 samples.

Results

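The genes described are 33 members of mouse fatty acid and triglyceride synthesis, taken by symbol from a deposited table of 37991 genes. Each symbol occurred once in that table, and 30 of the 33 members reached at least 1 FPKM in at least 3 of the 12 libraries and were tested. Scd2, Mogat1 and Pnpla3 did not reach that level and are described by their values and by a fit without this filter. FPKM counts sequenced fragments relative to transcript length and library depth, so levels can be compared between genes.

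The study measured polyadenylated RNA in primary hepatocytes, the main cells of the liver, plated on collagen. All mice were males in which both REV-ERB genes, Nr1d1 and Nr1d2, were floxed (REV-ERBab double floxed), and were 10 weeks old. They had received, 2 weeks before isolation, AAV8-TBG-Cre-GFP (KO) or AAV8-TBG-GFP (control). AAV8 is a virus that infects hepatocytes and TBG is a promoter active in them. Treatment of the plated cells lasted 8 h and used either 10 µM SR9009, made as an agonist of REV-ERB, or DMSO as the vehicle. Genotype and treatment give 4 groups of 3 libraries, named below by their labels, control or KO with DMSO or SR9009. No group holds Cre without floxed alleles, so effects of Cre and of REV-ERB loss cannot be told apart. Whether replicates came from different mice or from plates of the same isolation is not stated, so the p-values reflect only the spread among these samples, and that spread may be technical.

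Hepatocytes build fatty acids from cytosolic citrate. Citrate is cleaved to acetyl-CoA, carboxylated to malonyl-CoA, joined into palmitate by fatty acid synthase, then elongated, desaturated and esterified to glycerol, and the resulting triglyceride is stored in lipid droplets or secreted. The transcription factors SREBP1 (Srebf1) and ChREBP (Mlxipl) drive most of these genes in response to insulin and to sugar. REV-ERBs are nuclear receptors that repress transcription within the circadian clock, bind the same DNA element as the ROR receptors, and are known to repress genes of lipid metabolism in liver.

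Each library held 10611 to 10932 genes at 1 FPKM or more. Relative depth was estimated from the most common value of FPKM times gene length among short gene models. That value was shared by 36 to 67 genes per library. The estimate was 55.5% in control SR9009 library 1 and 63.4% in KO DMSO library 1, with control DMSO library 1 as 100%. It was 77.0% to 92.3% in the remaining libraries. Among DMSO libraries, Nr1d1 ranged from 18.3 to 19.0 FPKM for control and from 17.4 to 18.3 for KO, and Nr1d2 from 13.9 to 17.4 and from 16.1 to 16.3. With SR9009, Nr1d1 ranged from 19.0 to 20.1 FPKM for control and from 21.5 to 22.5 for KO. Nr1d2 then ranged from 13.5 to 16.7 FPKM for control and from 15.9 to 18.9 for KO. No source used here gives the deleted exons, so gene-level values can test neither the deletion nor the labels, and KO below means the libraries labelled so. Summed levels were 33980 to 42073 FPKM for 10 hepatocyte markers, 34.7 to 59.7 for 10 Kupffer cell markers, 6.25 to 15.05 for 6 endothelial markers, 1.47 to 2.70 for 7 stellate cell markers (Ngfr at 0 throughout) and 29.1 to 61.7 for 5 cholangiocyte markers. The hepatocyte markers summed to 37587 to 38443 FPKM in control DMSO, 39794 to 42073 in KO DMSO, 33980 to 36163 in control SR9009 and 37382 to 38313 in KO SR9009. Of these 10, 4 were higher and 1 lower in KO cells in DMSO and 4 higher and 3 lower under SR9009, and 4 fell with SR9009 in each genotype. Their part in the member differences was not tested. In bulk RNA, fewer cells of a type and less RNA per cell cannot be told apart.

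Members and gene lists were chosen with earlier results of these data known, so the counts below are descriptions. Members are given below by their role in the pathway. A member was called higher or lower where the adjusted p (limma on log2(FPKM + 1), Benjamini-Hochberg over all 11213 tested genes) was under 0.05. The log2 differences are on that scale and understate the change of genes at low levels, while folds are ratios of group means in FPKM and errors after ± are SDs (n = 3) unless named SE.

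In DMSO, KO cells had less transcript than control cells for the citrate importer Slc13a5, for all 3 tested desaturases (Scd1, Fads1, Fads2), for the elongase Elovl6 and for the glycerolipid enzymes Gpam, Lpin2 and Dgat2. They had more of the acyltransferases Agpat2 and Agpat3 and of the lipin Lpin3. Of the 30 tested members, 6 were higher and 10 lower, a called share of 53.3%, where 20.0% of all tested genes were called (11.7% higher and 8.32% lower). The median log2 difference was -0.09 over the members and 0.04 over all tested genes. The 2 groups did not overlap for 20 of the 30 members and for 41.2% of all tested genes.

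Under SR9009, the same comparison between genotypes gave 4 members higher and 9 lower, a called share of 43.3%, where 20.4% of all tested genes were called (12.9% higher and 7.43% lower). The medians were 0.02 and 0.06, and the groups did not overlap for 17 members (34.9% of all tested genes). This comparison shares no library with the one in DMSO, but both come from the same fit and share its estimate of the spread. Whether DMSO and SR9009 plates came from the same mice is not stated, so the comparisons may not be independent. Of the 16 and 13 members called in DMSO and under SR9009, 3 were higher in both (Agpat2, Agpat3, Lpin3) and 9 lower in both (Cidec, Dgat2, Elovl6, Fads1, Fads2, Gpam, Lpin2, Scd1, Slc13a5). No member was called in opposite directions. When each library was rescaled to the same sum, the called genes among all tested moved from 58.3% higher to 69.5% in DMSO and from 63.5% to 73.9% under SR9009, and the called members from 37.5% higher to 43.8% and from 30.8% to 38.5%.

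SR9009 raised Slc13a5, Thrsp and Elovl3 and lowered Aacs in both genotypes, and lowered Acly in control cells. These calls held under all 19 alternative settings for Slc13a5, Aacs and Acly. Those of Thrsp and Elovl3 were each lost under at least 1, that of Elovl3 in KO cells under 15. Of the 30 tested members, 3 rose and 2 fell in control cells, where 8.24% of all tested genes were called (3.69% higher and 4.55% lower). In KO cells, 5 rose and 3 fell, where 9.87% of all tested genes were called (5.32% higher and 4.56% lower). The DMSO and SR9009 libraries did not overlap for 12 members in control (25.0% of all tested genes) and 19 in KO cells (32.3%). The split in KO cells was 4 higher and 5 lower after quantile normalization, and 3 and 3 after rescaling. The medians were -0.12 in control and -0.14 in KO cells, against -0.02 and 0.00 over all tested genes. Each SR9009 comparison shares its DMSO libraries with the genotype comparison in DMSO, so calls of a member in both are not independent.

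The SR9009 effect itself was not called different between the genotypes for any member. In limma's interaction test 0 of 30 members passed, where 0.0268% of all tested genes were called, and 5 had an unadjusted p under 0.05 (Acly, Me1, Slc13a5, Scd1 and Cidec), as had 787 of the 11213 tested genes (7.02%). A member called in 1 genotype is therefore not shown to respond differently in the other.

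**Figure D1:**
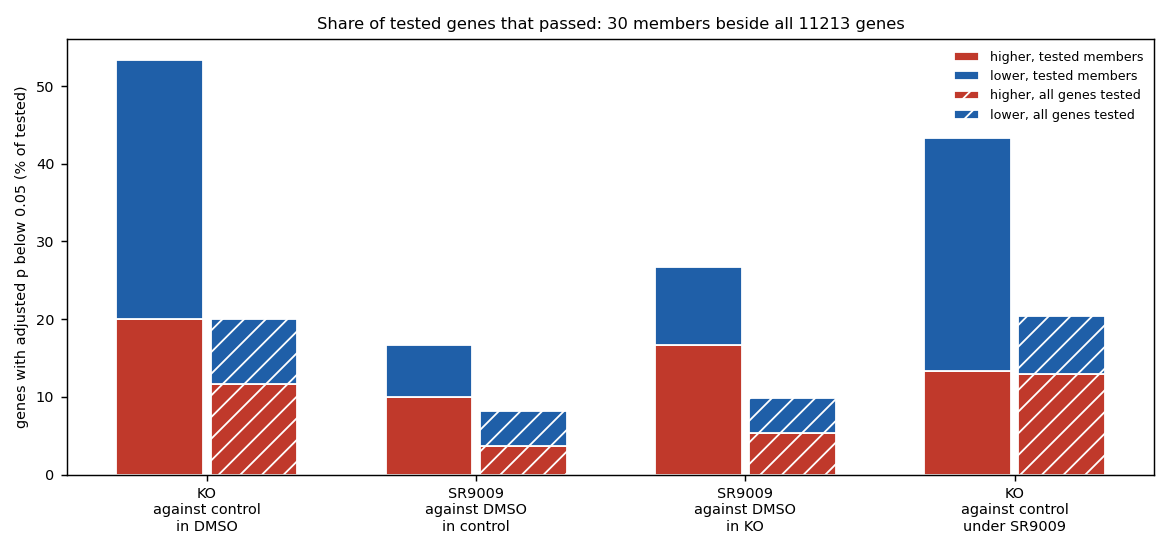
Percent of tested genes with an adjusted p under 0.05 in each of the 4 comparisons, for the 30 tested members (plain bars) and all 11213 tested genes (hatched bars), split into higher (red) and lower (blue). The member bar was taller than that of all genes in each comparison, at 53.3% against 20.0% for KO against control cells in DMSO. Members were chosen with earlier results of these data known, so the bars are a description and not a test.

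RefSeq promoter windows of 300 bases (250 before and 50 after the start, build GRCm38.p6) were matched to 27 members, which have 39 windows. Scd1, Scd2, Fads1, Dgat1, Dgat2 and Elovl3 had no window and were not searched. The deposited coordinates are on build mm9 and were not joined to these windows. Windows are printed for Slc13a5, whose level differed most between genotypes (1 of its 2 RefSeq windows, printed because it holds a CCAAT box). They are also printed for Acly, Elovl6 and Lpin1, called members with the core letters of the element bound by REV-ERB and ROR receptors. Elovl1 and Gpam are further called members with these letters in a window and are not printed. Capitals mark motif letters found on either strand.

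Slc13a5, chr11:72266555-72266854, minus strand: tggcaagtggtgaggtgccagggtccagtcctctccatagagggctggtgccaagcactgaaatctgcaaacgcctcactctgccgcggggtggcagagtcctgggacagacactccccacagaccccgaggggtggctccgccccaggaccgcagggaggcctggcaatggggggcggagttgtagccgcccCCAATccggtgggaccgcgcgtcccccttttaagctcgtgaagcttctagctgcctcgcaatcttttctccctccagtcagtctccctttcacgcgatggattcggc
Acly, chr11:100527951-100528250, minus strand: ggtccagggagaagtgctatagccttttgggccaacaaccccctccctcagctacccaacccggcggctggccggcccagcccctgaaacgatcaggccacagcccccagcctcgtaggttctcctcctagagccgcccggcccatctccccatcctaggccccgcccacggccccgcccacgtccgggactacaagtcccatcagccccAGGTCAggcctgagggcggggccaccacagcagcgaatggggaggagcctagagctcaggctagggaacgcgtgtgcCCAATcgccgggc
Elovl6, chr3:129532136-129532435, plus strand: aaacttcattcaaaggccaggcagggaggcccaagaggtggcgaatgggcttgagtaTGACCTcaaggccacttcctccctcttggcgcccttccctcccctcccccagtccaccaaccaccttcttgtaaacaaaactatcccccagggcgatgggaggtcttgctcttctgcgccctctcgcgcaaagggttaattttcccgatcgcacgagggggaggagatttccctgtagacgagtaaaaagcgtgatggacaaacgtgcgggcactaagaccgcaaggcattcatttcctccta
Lpin1, chr12:16610917-16611216, minus strand: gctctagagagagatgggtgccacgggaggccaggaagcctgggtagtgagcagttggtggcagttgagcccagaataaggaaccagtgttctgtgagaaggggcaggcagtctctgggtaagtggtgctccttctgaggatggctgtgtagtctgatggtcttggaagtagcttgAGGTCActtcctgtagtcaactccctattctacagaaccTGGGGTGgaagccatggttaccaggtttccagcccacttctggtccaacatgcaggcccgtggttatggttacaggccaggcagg

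The 4 motifs searched on both strands were AGGTCA (REV-ERB and ROR core), CACGTG (E-box), CACNCCA (core of a sterol regulatory element) and CCAAT (bound by NF-Y), none of which contains another. AGGTCA occurred in a window of 6 members (Acacb, Acly, Elovl1, Elovl6, Gpam and Lpin1), or 6 of 39 windows, and in 16.3% of all 32851 windows of that length. The member share was not above that of all windows. In Acly it began 40 bases before the start, at position -40, and in Lpin1 at position -74, with a sterol core on the opposite strand at position -35 (TGGGGTG). In Elovl6 it lay at position -193 on the opposite strand and reads TGACCT in the line above. The printed Slc13a5 window held a CCAAT box at position -57 and none of the other letters, its further window held none of the 4 motifs, and Acly held a further CCAAT box at position 37. The E-box was found in 5 of 39 member windows (7.15% of all windows), the sterol core in 10 (18.4%) and CCAAT in 17 (37.4%). AGGTCA was searched as the core alone, without its flanking bases. A match describes letters and not a bound site.

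Among the transcription regulators, Thrsp (a thyroid hormone-responsive protein that enhances lipid synthesis) was the most abundant and rose with SR9009 in both genotypes. Thrsp stood at 76.1, 112 and 97.9 FPKM in control DMSO, 139, 141 and 159.6 in control SR9009, 109, 119.5 and 112 in KO DMSO, and 154, 149 and 171 in KO SR9009. All 6 SR9009 libraries lay above all 6 DMSO libraries. The rise was 1.54-fold in control (log2 0.63, SE 0.12, adjusted p = 0.00602) and 1.39-fold in KO cells (log2 0.48, SE 0.12, adjusted p = 0.0223). The call in control cells was lost in a fit to those 2 groups alone (adjusted p = 0.0511). The call in KO cells was lost without KO DMSO library 1 (0.0753) or 3 (0.0697), without KO SR9009 library 1 (0.0621) or 3 (0.0812), without the 2 shallowest libraries (0.0823) and without the filter on low values (0.0633). Between genotypes Thrsp was not called in DMSO (adjusted p = 0.135) or under SR9009 (0.545).

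Mlxipl, which encodes the sugar-responsive factor ChREBP, was higher in KO cells in DMSO. Its levels were 51.2, 55.1 and 61.7 FPKM in control DMSO, 57.0, 55.4 and 50.7 in control SR9009, 69.6, 66.1 and 63.8 in KO DMSO, and 58.6, 61.3 and 59.6 in KO SR9009. The KO DMSO libraries lay above the control DMSO libraries, by 1.19-fold (adjusted p = 0.0284). That call was lost without control DMSO library 1 (adjusted p = 0.116) or 2 (0.0858), without KO DMSO library 1 (0.104) or 2 (0.0671), without the 2 shallowest libraries (0.0985) and without the filter on low values (0.0614). Under SR9009 the genotypes were not called different (adjusted p = 0.202).

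Srebf1, which encodes SREBP1, the insulin-responsive activator of lipogenesis, was the least abundant regulator and was called in no comparison. It stood at 17.8, 17.3 and 18.2 FPKM in control DMSO, 15.6, 15.2 and 15.8 in control SR9009, 16.5, 16.4 and 15.3 in KO DMSO, and 16.0, 15.6 and 16.0 in KO SR9009. The 3 control DMSO libraries lay above the other 9, and the log2 differences from them were -0.14 for KO DMSO (adjusted p = 0.123) and -0.18 for control SR9009 (0.0786). Its gene model overlaps that of Rai1 on the opposite strand by 109 bp, and Rai1 has a mean of 14.6 FPKM against 16.3 for Srebf1.

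Of the 6 genes that supply citrate, acetyl-CoA and NADPH, Slc13a5 (mm9 chr11:72055496-72080724) showed the largest genotype differences of all members. It encodes the transporter that brings citrate in from the blood. Slc13a5 stood at 29.6, 27.7 and 33.2 FPKM in control DMSO, 66.6, 64.2 and 51.4 in control SR9009, 2.60, 4.58 and 3.13 in KO DMSO, and 10.8, 12.9 and 11.2 in KO SR9009. No 2 groups overlapped, and the order from low to high was KO DMSO, KO SR9009, control DMSO and control SR9009. Its level in DMSO was 8.77-fold lower in KO cells (log2 -2.83, SE 0.15, adjusted p = 7.58e-08) and 5.21-fold lower under SR9009 (log2 -2.28, adjusted p = 4.61e-07). SR9009 raised it 2.02-fold in control (adjusted p = 0.00192) and 3.39-fold in KO cells (adjusted p = 6.53e-05). The difference between these rises was 0.55 on the log2 scale (SE 0.21, unadjusted p = 0.0231, adjusted p = 0.648). All 4 calls held under all 19 alternative settings.

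Acly (chr11:100337667-100389314), the enzyme that cleaves citrate to acetyl-CoA and the most abundant gene of this group, fell with SR9009 in control cells. Its values were 255, 242 and 252 FPKM in control DMSO, 177, 176 and 163 in control SR9009, 289, 252 and 266 in KO DMSO, and 252, 238 and 244 in KO SR9009. The 3 control SR9009 libraries lay below the other 9. The fall in control cells was 1.45-fold (log2 -0.54, SE 0.06, adjusted p = 2.16e-04), and the difference in KO cells was -0.14 (adjusted p = 0.190). Under SR9009 Acly was 1.42-fold higher in KO than in control cells (adjusted p = 6.02e-05), while in DMSO the log2 difference was 0.11 (0.233). The interaction was 0.40 (SE 0.08, unadjusted p = 4.17e-04) and did not pass adjustment (adjusted p = 0.312).

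Aacs (chr5:125956184-125997782), which makes acetoacetyl-CoA from the ketone body acetoacetate, fell with SR9009 in both genotypes. Aacs stood at 38.7, 38.1 and 37.4 FPKM in control DMSO, 26.9, 29.9 and 28.2 in control SR9009, 38.1, 40.6 and 40.2 in KO DMSO, and 30.4, 30.8 and 30.2 in KO SR9009. Each SR9009 library lay below each DMSO library. The falls were 1.34-fold in control (log2 -0.41, adjusted p = 7.45e-04) and 1.30-fold in KO cells (log2 -0.37, adjusted p = 0.00129), and they held under all 19 alternatives. The genotypes were not called different in DMSO (adjusted p = 0.525) or under SR9009 (0.222).

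Me1, the malic enzyme that yields NADPH, was slightly lower in KO DMSO. It stood at 75.7, 70.4 and 73.3 FPKM in control DMSO, 71.8, 73.6 and 68.5 in control SR9009, 65.6, 63.7 and 65.7 in KO DMSO, and 71.6, 72.9 and 74.4 in KO SR9009. The KO DMSO libraries lay below the other 9, and the log2 difference from control DMSO was -0.17 (SE 0.05, adjusted p = 0.0319). The call was lost under 9 of 19 alternatives, among them quantile normalization (adjusted p = 0.174), rescaling (0.274), leaving out the 2 shallowest libraries (0.0743), and leaving out control DMSO library 1 (0.117) or 3 (0.0838) or any KO DMSO library (0.0662 to 0.102).

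The remaining supply genes were called in no comparison. Slc25a1, the mitochondrial citrate exporter, had mean levels of 90.8 FPKM with DMSO and 85.2 with SR9009 in control cells, and 95.1 and 92.4 in KO cells. Acss2, which activates acetate, was the least abundant of the group at 20.5, 20.6 and 18.6 FPKM in control DMSO, 17.2, 20.0 and 18.8 in control SR9009, 17.9, 19.4 and 18.5 in KO DMSO, and 16.8, 19.7 and 18.9 in KO SR9009, and its groups overlapped in all 4 comparisons. The model of Acss2 overlaps that of Gss on the opposite strand by 22544 bp, Gss has a mean of 104 FPKM against 18.9, and no strand setting is known, so the values of Acss2 are uncertain.

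The 3 enzymes that build the carbon chain were called in no comparison. Fasn, the fatty acid synthase, stood at 90.7, 77.4 and 81.1 FPKM in control DMSO, 75.9, 68.0 and 57.1 in control SR9009, 109, 78.4 and 91.7 in KO DMSO, and 67.3, 68.3 and 74.4 in KO SR9009. KO SR9009 libraries lay below KO DMSO libraries, with a log2 difference of -0.39 (adjusted p = 0.0620), and the difference in control cells was -0.31 (0.151). Acaca, the cytosolic acetyl-CoA carboxylase, had group means of 20.5, 17.4, 25.6 and 22.9 FPKM, in the order given for Slc25a1. Its KO libraries lay above the control libraries in both treatments (adjusted p = 0.122 in DMSO and 0.0509 under SR9009). Acacb, the carboxylase at the mitochondrial membrane, was the least abundant of the 3 at 5.21, 4.45 and 5.29 FPKM in control DMSO, 4.34, 4.51 and 3.27 in control SR9009, 5.16, 4.36 and 5.30 in KO DMSO, and 3.48, 4.05 and 4.67 in KO SR9009, and its KO and control libraries overlapped in both treatments.

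**Figure D2:**
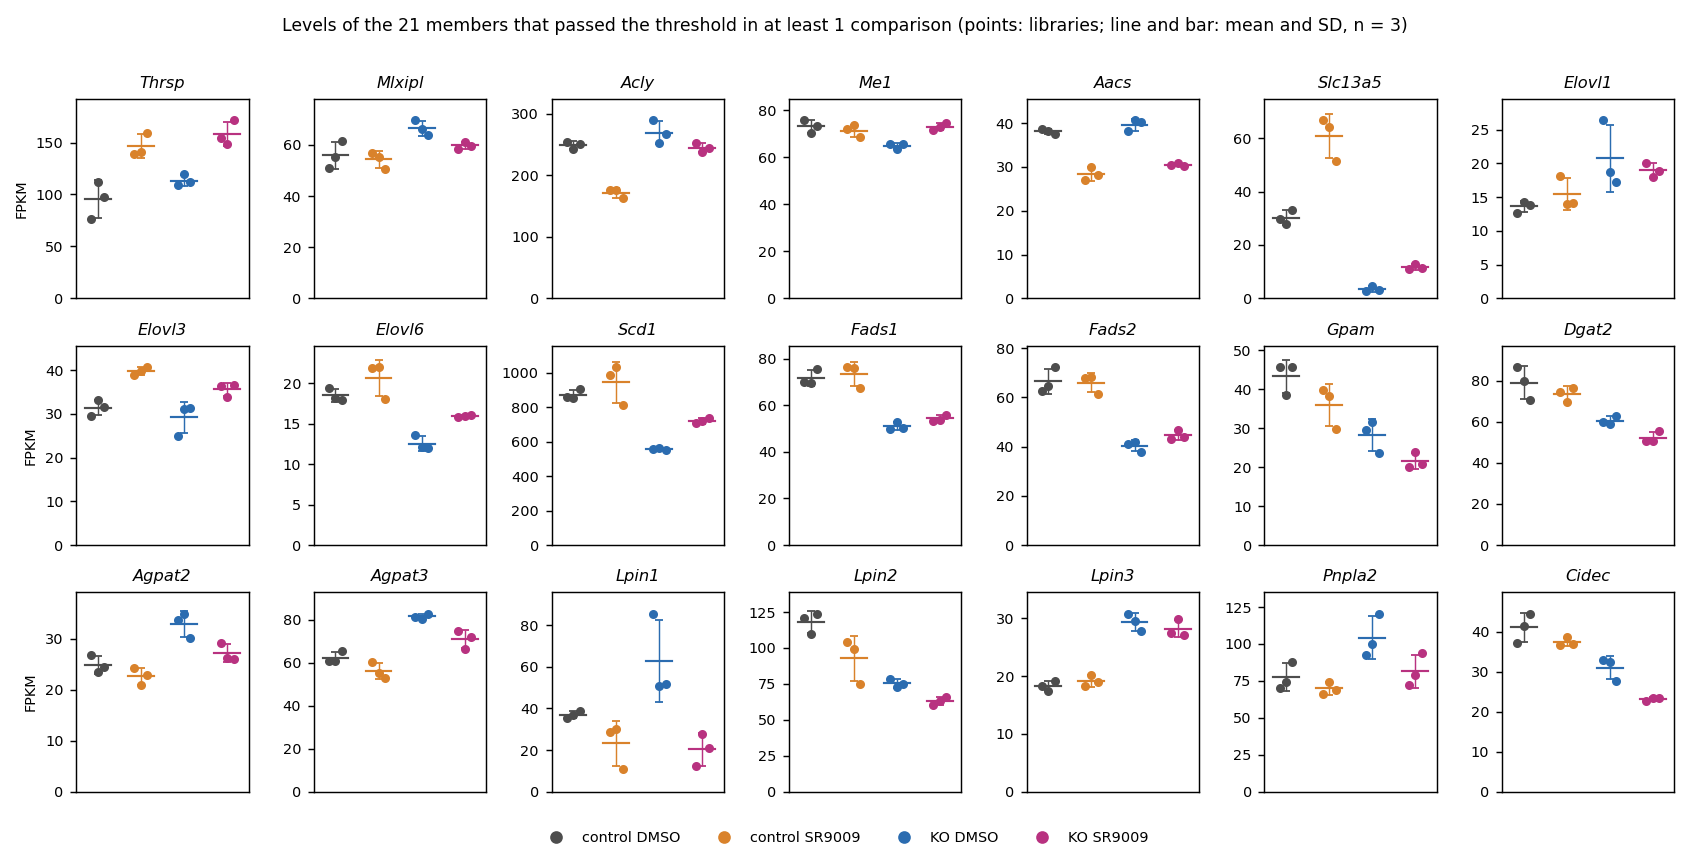
FPKM of the 21 members called in at least 1 of the 4 comparisons, on linear axes from 0. Points are libraries, and lines and bars are means and SDs (n = 3). Slc13a5 was lowest in KO DMSO (2.60 to 4.58 FPKM), Acly was lowest in control SR9009 (163 to 177 FPKM), and the 6 SR9009 libraries of Thrsp lay above its 6 DMSO libraries.

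Of the 5 elongases, which extend fatty acids by carbon pairs, Elovl6 was lower and Elovl1 higher in KO cells in DMSO. Elovl6 (chr3:129235304-129341413), which extends palmitate, stood at 19.4, 18.2 and 17.9 FPKM in control DMSO, 22.0, 22.0 and 18.1 in control SR9009, 13.6, 12.1 and 11.99 in KO DMSO, and 15.8, 16.0 and 16.1 in KO SR9009. The KO libraries lay below the control libraries in both treatments. The difference was 1.47-fold in DMSO (log2 -0.53, adjusted p = 6.71e-04) and 1.30-fold under SR9009 (log2 -0.35, adjusted p = 0.00921, lost on rescaling at 0.0585). SR9009 raised Elovl6 in KO cells by a log2 difference of 0.32 (adjusted p = 0.0263), a comparison that shares the KO DMSO libraries with the one in DMSO. That rise was no longer called without KO DMSO library 2 (0.0934) or 3 (0.0945), without any KO SR9009 library (0.0732 to 0.0777), on rescaling (0.0782), and without the filter (0.057).

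Elovl1, which extends saturated and monounsaturated very long chains, stood at 12.7, 14.3 and 13.9 FPKM in control DMSO, 18.1, 14.0 and 14.1 in control SR9009, 26.4, 18.7 and 17.2 in KO DMSO, and 20.1, 17.9 and 18.9 in KO SR9009. KO DMSO library 1 and control SR9009 library 1, the 2 shallowest libraries, were the highest of their groups, and the KO DMSO libraries lay above the control DMSO libraries. Its log2 difference in DMSO was 0.55 (SE 0.14, adjusted p = 0.0152), and the call was lost without control DMSO library 1 (adjusted p = 0.0574). Under SR9009 the groups overlapped (log2 0.29, adjusted p = 0.169), with an adjusted p of 0.00639 without the 2 shallowest libraries.

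Elovl3, an elongase under circadian control in liver, rose with SR9009 in both genotypes. It stood at 29.6, 33.1 and 31.6 FPKM in control DMSO, 38.8, 39.8 and 40.7 in control SR9009, 25.0, 31.0 and 31.5 in KO DMSO, and 36.4, 33.9 and 36.6 in KO SR9009. SR9009 libraries lay above DMSO libraries within each genotype. On the log2 scale the rises were 0.33 in control (adjusted p = 0.0297) and 0.29 in KO cells (adjusted p = 0.0466). The call in control cells was lost without control DMSO library 1 (0.116) or 3 (0.0811), without any control SR9009 library (0.0556 to 0.0651), and without the filter (0.0704). The call in KO cells was lost under 15 of the 19 alternatives (adjusted p = 0.0509 to 0.145), among them leaving out any library but control SR9009 library 3 or KO DMSO library 3.

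Elovl5 and Elovl2, which extend polyunsaturated fatty acids, were called in no comparison. Elovl5 was the most abundant elongase at 69.5, 70.6 and 70.9 FPKM in control DMSO, 67.7, 66.4 and 62.0 in control SR9009, 61.1, 60.9 and 66.3 in KO DMSO, and 59.4, 56.6 and 62.2 in KO SR9009. KO DMSO libraries lay below control DMSO libraries (log2 -0.16, adjusted p = 0.0641). Elovl2 had group means of 59.3, 51.9, 55.5 and 48.4 FPKM, in the same order as before.

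All 3 tested desaturases were lower in KO cells in both treatments. Scd1 (chr19:44468941-44482199), the desaturase that makes oleate and palmitoleate, was the most abundant member, with a mean of 773 FPKM over the 12 libraries. Scd1 stood at 858, 855 and 904 FPKM in control DMSO, 988, 1032 and 810.3 in control SR9009, 558, 560.0 and 553 in KO DMSO, and 706, 717 and 736 in KO SR9009. KO libraries lay below control libraries in both treatments, and within KO cells the SR9009 libraries lay above the DMSO libraries. The log2 genotype difference was -0.65 in DMSO (adjusted p = 6.71e-05) and -0.38 under SR9009 (adjusted p = 0.00299, lost after quantile normalization at 0.132). SR9009 raised Scd1 by a log2 difference of 0.37 in KO cells (adjusted p = 0.00844), and the difference in control cells was 0.11 (0.460), which passed without control SR9009 library 3 (log2 0.21, adjusted p = 0.0109). The rise in KO cells shares the KO DMSO libraries with the genotype difference in DMSO. The interaction was 0.26 (unadjusted p = 0.0288, adjusted p = 0.663).

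Fads1 and Fads2, the front-end desaturases of polyunsaturated fatty acids, lie 81384 bp apart on chromosome 19 on opposite strands. Fads1 (chr19:10257378-10271360) stood at 69.9, 69.5 and 75.6 FPKM in control DMSO, 76.4, 76.1 and 67.5 in control SR9009, 49.99, 52.9 and 50.2 in KO DMSO, and 53.5, 53.7 and 56.0 in KO SR9009. Fads2 (chr19:10138654-10175993) stood at 62.6, 64.6 and 72.3 FPKM in control DMSO, 68.0, 68.2 and 61.5 in control SR9009, 41.2, 41.9 and 37.8 in KO DMSO, and 42.9, 46.9 and 44.1 in KO SR9009. For both genes the 6 KO libraries lay below the 6 control libraries. In DMSO the differences were 1.40-fold for Fads1 (log2 -0.48, adjusted p = 1.32e-04) and 1.65-fold for Fads2 (log2 -0.71, adjusted p = 1.81e-05). Under SR9009 they were -0.42 (adjusted p = 3.28e-04) and -0.55 (adjusted p = 1.37e-04) on the log2 scale. SR9009 against DMSO was called for neither gene in either genotype.

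Scd2, a desaturase isoform found mainly outside the liver, was below the filter. It stood at 0.319, 0.363 and 0.356 FPKM in control DMSO, 0.568, 0.418 and 0.364 in control SR9009, 1.11, 0.320 and 0.147 in KO DMSO, and 0.452, 0.289 and 0.361 in KO SR9009. Only KO DMSO library 1 exceeded 1 FPKM, and the KO DMSO values spanned those of the other 3 groups. Scd2 lies 87586 bp from Scd1, and reads shared between such copies could be split between them.

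Glycerolipid assembly held members that differed in opposite directions between the genotypes: 3 of 8 tested were higher and 3 lower in KO cells, in DMSO and again under SR9009. The called share was 75% in each, where 20.0% of all tested genes were called in DMSO and 20.4% under SR9009. Gpam, the mitochondrial acyltransferase that starts the pathway, was lower. Gpam (chr19:55142142-55201824) stood at 45.7, 38.5 and 45.7 FPKM in control DMSO, 39.9, 38.3 and 29.8 in control SR9009, 29.6, 31.6 and 23.7 in KO DMSO, and 20.2, 23.9 and 20.9 in KO SR9009. KO libraries lay below control libraries within each treatment. The differences were 1.53-fold in DMSO (log2 -0.60, adjusted p = 0.00549) and 1.66-fold under SR9009 (log2 -0.70, adjusted p = 0.00195). SR9009 against DMSO was not called in control (0.255) or KO cells (0.104).

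The acyltransferases of the next step, Agpat2 and Agpat3, which add the second acyl chain to make phosphatidic acid, were higher in KO cells. Agpat3 (chr10:77731923-77815234) stood at 60.7, 60.9 and 65.4 FPKM in control DMSO, 60.3, 55.3 and 52.8 in control SR9009, 81.4, 80.5 and 82.9 in KO DMSO, and 75.0, 66.5 and 72.0 in KO SR9009. Agpat2 stood at 26.8, 23.4 and 24.4 FPKM in control DMSO, 24.2, 20.9 and 22.8 in control SR9009, 33.7, 34.9 and 30.04 in KO DMSO, and 29.2, 26.2 and 26.0 in KO SR9009. For both, KO libraries lay above control libraries within each treatment. In DMSO the log2 differences were 0.38 for Agpat3 (adjusted p = 9.72e-04) and 0.39 for Agpat2 (0.00516), and under SR9009 0.34 (0.00220) and 0.25 (0.0473). The last of these was lost under 11 of 19 alternatives (adjusted p = 0.0535 to 0.157): without the filter, in a fit to the 2 groups alone, and without control DMSO library 2 or 3, control SR9009 library 2 or 3, KO DMSO library 1 or 2, or any KO SR9009 library.

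The 3 lipins, phosphatases that turn phosphatidic acid into diacylglycerol, differed in direction. Lpin2 (chr17:71531900-71599157), the most abundant gene of the group, stood at 121, 109 and 124 FPKM in control DMSO, 104, 99.0 and 75.0 in control SR9009, 78.6, 72.9 and 74.7 in KO DMSO, and 60.4, 63.0 and 65.6 in KO SR9009. Lpin3 (chr2:160706406-160731738) stood at 18.3, 17.4 and 19.1 FPKM in control DMSO, 18.2, 20.2 and 19.0 in control SR9009, 30.8, 29.6 and 27.8 in KO DMSO, and 27.5, 29.9 and 27.2 in KO SR9009. In both treatments KO libraries lay below control libraries for Lpin2 and above them for Lpin3. Lpin2 was 1.57-fold lower in DMSO (log2 -0.64, adjusted p = 8.21e-04) and 1.47-fold lower under SR9009 (0.00251). Lpin3 was 1.61-fold higher in DMSO (log2 0.65, adjusted p = 2.31e-05) and 1.47-fold higher under SR9009 (1.19e-04). With DMSO, Lpin2 made up 66.8% to 69.2% of the summed lipin FPKM in control and 40.3% to 48.4% in KO cells, and Lpin3 10.5% to 10.7% and 15.8% to 19.3%.

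Lpin1 (chr12:16542475-16596576), a lipin that also acts as a coactivator in the nucleus, had the largest SE of the tested members. It stood at 35.3, 36.9 and 38.9 FPKM in control DMSO, 28.7, 29.9 and 10.95 in control SR9009, 85.6, 51.0 and 51.9 in KO DMSO, and 12.2, 27.7 and 21.2 in KO SR9009. The KO DMSO libraries lay above all others, with library 1, the second shallowest, the highest, and control SR9009 library 3 and KO SR9009 library 1 were the lowest. SR9009 lowered Lpin1 3.08-fold in KO cells (log2 -1.61, SE 0.39, adjusted p = 0.0269). The call was lost without KO DMSO library 1 (log2 -1.37, adjusted p = 0.0862), KO SR9009 library 1 (-1.29, 0.103) or library 3 (-1.67, 0.0608), and without the 2 shallowest libraries (0.0954). In control cells the log2 difference was -0.77 (SE 0.39, adjusted p = 0.287), and between genotypes in DMSO it was 0.71 (0.241). These were -0.33 without control SR9009 library 3 (adjusted p = 0.578) and 0.47 without KO DMSO library 1 (0.519).

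Dgat2 (chr7:106302173-106331223), which completes triglyceride from newly made fatty acids, was lower in KO cells. Dgat2 stood at 86.6, 79.6 and 70.5 FPKM in control DMSO, 74.6, 69.4 and 76.6 in control SR9009, 59.7, 58.7 and 63.0 in KO DMSO, and 50.7, 50.6 and 55.5 in KO SR9009. The 6 KO libraries lay below the 6 control libraries. The log2 differences were -0.37 in DMSO (adjusted p = 0.00377) and -0.48 under SR9009 (5.77e-04). Dgat1, the other enzyme of this step, was called in no comparison and had group means of 12.1, 9.63, 11.2 and 9.99 FPKM, in the same order as before.

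Mogat1, a monoacylglycerol acyltransferase, was below the filter. It stood at 0.823, 0.532 and 0.782 FPKM in control DMSO, 0.508, 0.657 and 0.822 in control SR9009, 0, 0 and 0 in KO DMSO, and 0.392, 0.235 and 0.0353 in KO SR9009. Mogat1 was listed at 0 in all 3 KO DMSO libraries, and the KO SR9009 libraries lay below both control groups. At these levels few fragments lie behind each value. In the fit without the filter Mogat1 was called lower in KO cells, with log2(FPKM + 1) differences of -0.77 in DMSO (adjusted p = 0.00217) and -0.45 under SR9009 (0.0391), and was not called with SR9009 in control (-0.04, 0.973) or KO cells (0.28, 0.307). Scd2 and Pnpla3 were called in none of the 5 comparisons of that fit (limma, adjusted p of at least 0.565).

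**Figure D3:**
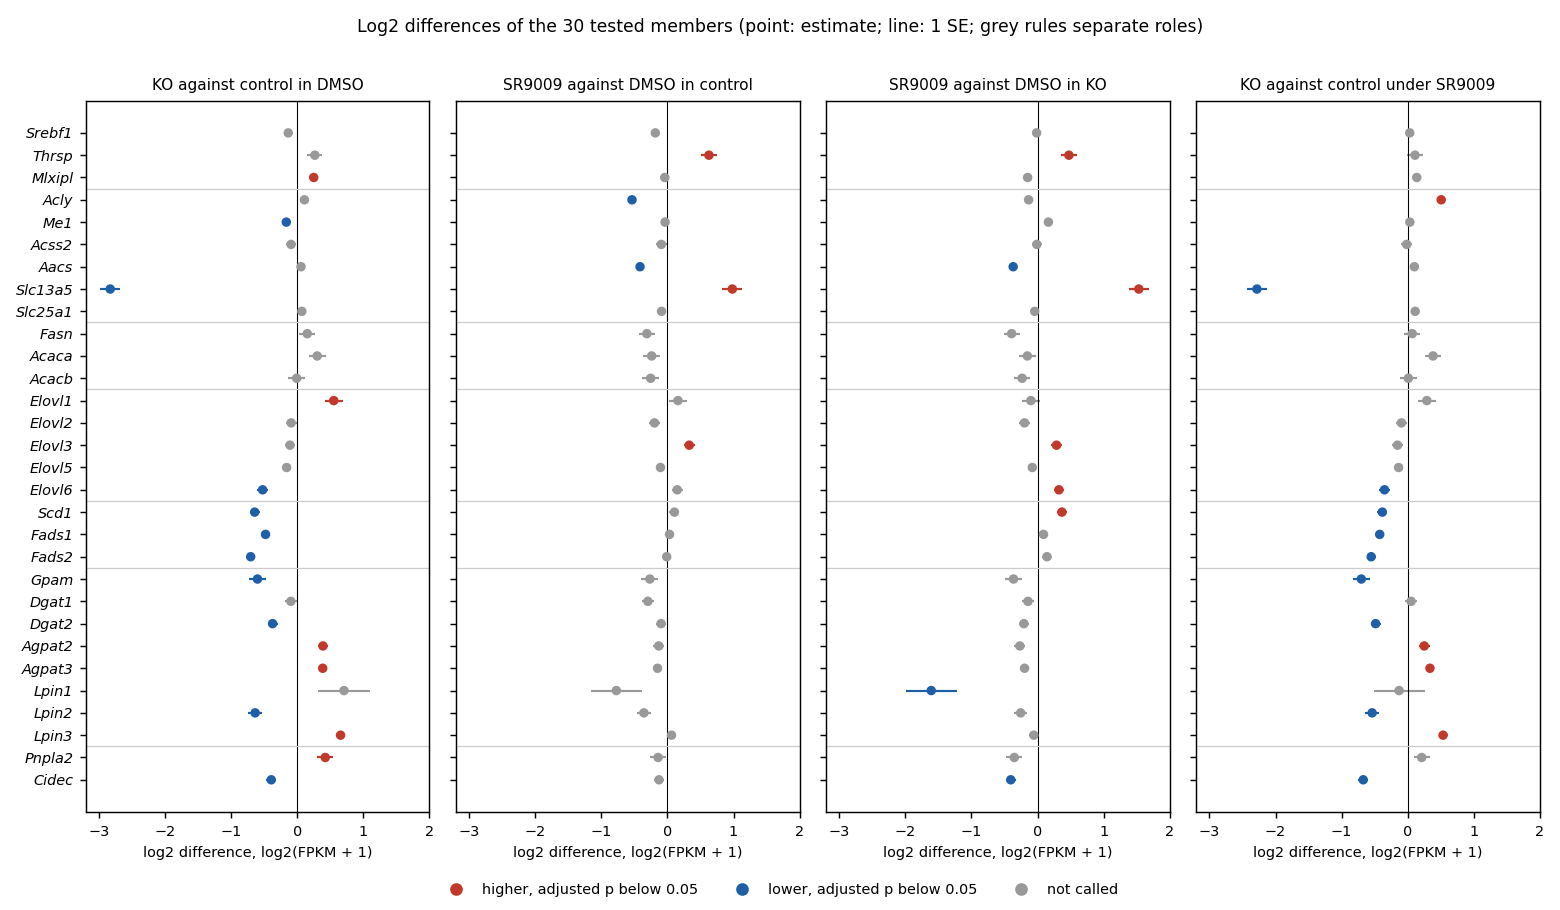
Log2 differences of the 30 tested members in the 4 comparisons, on the log2(FPKM + 1) scale, with lines of 1 SE and colour for members past the threshold (red higher, blue lower, grey not called). Within glycerolipid assembly Gpam, Dgat2 and Lpin2 lay left of 0 and Agpat2, Agpat3 and Lpin3 right of 0 in both genotype comparisons.

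At the lipid droplet, Cidec was lower and Pnpla2 higher in KO cells in DMSO. Cidec (chr6:113374628-113385754), which fuses droplets, stood at 37.2, 41.5 and 44.5 FPKM in control DMSO, 36.7, 38.5 and 37.0 in control SR9009, 32.8, 32.5 and 27.7 in KO DMSO, and 22.5, 23.3 and 23.5 in KO SR9009. The 6 KO libraries lay below the 6 control libraries, and the KO SR9009 libraries were the lowest. Between genotypes Cidec was 1.32-fold lower in DMSO (log2 -0.39, adjusted p = 0.00346) and 1.62-fold lower under SR9009 (log2 -0.67, adjusted p = 5.91e-05). With SR9009 it fell by 0.41 on the log2 scale in KO cells (adjusted p = 0.00609), and the difference in control cells was -0.13 (0.385). Their interaction was -0.28 (unadjusted p = 0.0266, adjusted p = 0.663).

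Cidec is also abundant in adipocytes. Of 6 adipocyte markers, Lep was at 0 in every library, and Adipoq reached at most 0.052 FPKM, Plin1 0.0706, Retn 0.0492 and Cfd 1.68. Fabp4 stood at 30.6 to 57.4 FPKM and made up nearly all of the summed level. That sum was 51.3 to 59.0 FPKM in control DMSO, 32.3 to 41.4 in control SR9009, 43.4 to 48.6 in KO DMSO and 31.5 to 40.7 in KO SR9009. Of the 2 adipocyte markers past the filter, 1 was lower in KO cells in DMSO and 1 under SR9009. With SR9009, 1 fell in control cells and 0 in KO cells. The Kupffer cell markers summed to 47.8 to 59.7 FPKM in control DMSO and 34.7 to 46.1 in KO DMSO, where 1 was higher and 4 lower, and the endothelial markers to 6.48 to 7.16 and 10.2 to 15.05, where 3 were higher. The cholangiocyte markers summed to 42.1 to 44.7 FPKM in control DMSO and 29.1 to 38.8 in KO DMSO, where 1 was higher and 1 lower. The part of these cells in the member differences was not tested.

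Pnpla2 (chr7:148641097-148646642), the adipose triglyceride lipase that starts triglyceride breakdown, stood at 70.1, 74.3 and 88.1 FPKM in control DMSO, 66.1, 74.4 and 69.1 in control SR9009, 92.5, 99.97 and 121 in KO DMSO, and 71.9, 78.7 and 94.0 in KO SR9009. The KO DMSO libraries lay above the control DMSO libraries, and under SR9009 the genotypes overlapped. The log2 difference of Pnpla2 was 0.42 in DMSO (adjusted p = 0.0255), and the call was lost without control DMSO library 1 (0.0974) or 2 (0.0843), without KO DMSO library 3 (0.101), and without the filter (0.0669). Under SR9009 the difference was 0.21 (0.239). Pnpla3, a related lipase of the droplet, was the least abundant member at 0.0240, 0.0625 and 0.136 FPKM in control DMSO, 0.101, 0.0459 and 0.0507 in control SR9009, 0.0254, 0.0566 and 0.00998 in KO DMSO, and 0.0868, 0.133 and 0.00935 in KO SR9009, and its groups overlapped.

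The 2 genotype comparisons share no library, and neither do the 2 SR9009 comparisons, so the members' differences can be set side by side. The 2 genotype comparisons may still use cells of the same mice, which is not stated, so they may not be independent. Between the genotype comparisons, 25 of 30 members had the same sign (all tested genes 74.7%), and Pearson's r across members was 0.935, or 0.834 without Slc13a5 (all tested genes 0.779). Between the SR9009 comparisons, 26 of 30 had the same sign (all tested genes 67.2%), and r was 0.880, or 0.802 without Slc13a5 (all tested genes 0.570). These values are across genes, which are not independent replicates, and are a description.

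**Figure D4:**
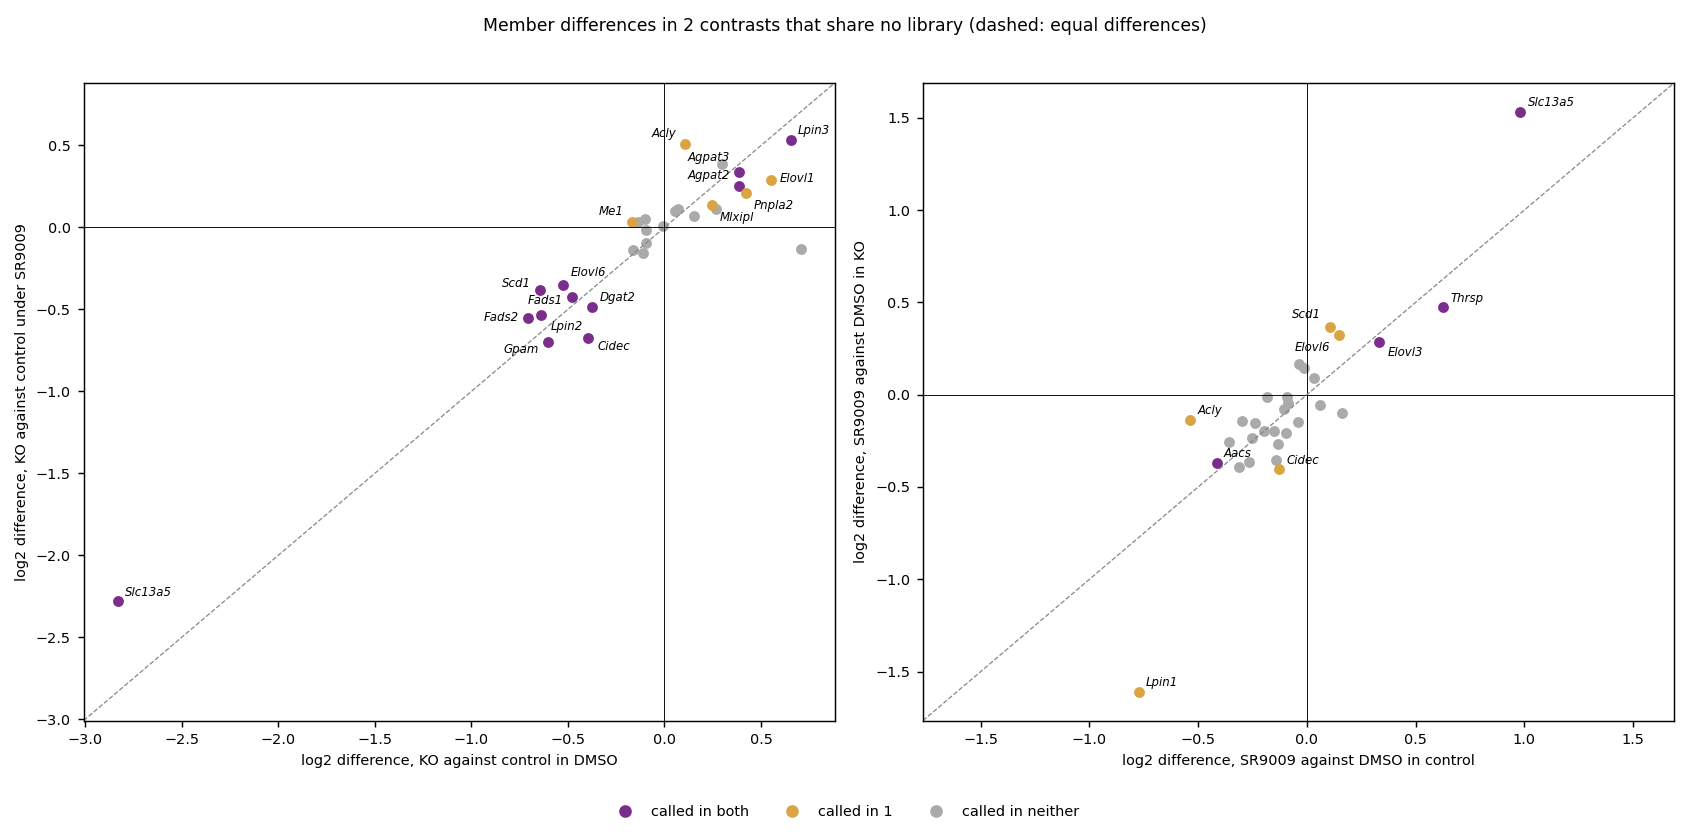
Log2 differences of the 30 tested members in KO against control cells under SR9009 against those in DMSO (left), and in SR9009 against DMSO in KO against those in control cells (right), with the dashed line where both are equal. Slc13a5 lay at -2.83 and -2.28 on the left and at 0.98 and 1.53 on the right.

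Other genes of the pathway were counted in 4 further lists. Of 19 tested genes listed as regulators of lipogenic transcription, 3 were higher and 4 lower in KO cells in DMSO. The list also holds a hormone (Fgf21) and a sterol carrier (Stard4), and both are among these calls. With SR9009, 3 rose and 3 fell in control and 2 rose and 1 fell in KO cells, and under SR9009 2 were higher and 1 lower in KO cells. The share called was 36.8% in DMSO between genotypes (20.0% of all tested genes), 31.6% with SR9009 in control (8.24%), 15.8% with SR9009 in KO cells (9.87%) and 15.8% between genotypes under SR9009 (20.4%), the last not above the background. Insig1, which retains the SREBP precursor in the endoplasmic reticulum, was lower in KO DMSO (23.4 ± 2.05 FPKM against 35.2 ± 1.53, adjusted p = 1.69e-04), and rose with SR9009 to 43.7 ± 2.84 and 38.5 ± 1.62 (0.0257 and 1.19e-04). Under SR9009 Insig1 was not called different between genotypes (limma, adjusted p = 0.112). Its paralog Insig2 was 3.31-fold higher in KO cells in DMSO (adjusted p = 3.03e-08) and 3.04-fold higher under SR9009 (5.38e-08). With SR9009, Insig2 rose by a log2 difference of 0.41 in control (0.00968) and 0.29 in KO cells (0.0461). Fgf21, a hormone of fasting, was higher in KO than in control cells in DMSO (15.2 ± 1.93 against 7.74 ± 1.35 FPKM, adjusted p = 0.00151). It was also higher in KO cells under SR9009 (12.8 ± 2.06 against 3.72 ± 0.746 FPKM, 1.79e-05). SR9009 lowered Fgf21 in control cells (0.00432) and was not called in KO cells (0.424). Stard4, a sterol carrier, was lower in KO DMSO (log2 -0.71, adjusted p = 5.52e-05) and fell with SR9009 in control cells (-0.40, 0.0101). The genotypes were not called different for Stard4 under SR9009 (limma, adjusted p = 0.142).

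Of 14 tested genes of NADPH and carbon supply, 4 were higher and 4 lower in KO cells in DMSO, and 3 and 4 under SR9009. SR9009 raised 2 and lowered 3 in control, and raised 3 and lowered 2 in KO cells. Called were thus 57.1% and 7 of 14 between genotypes, against 20.0% and 20.4% of all tested genes, and 35.7% with SR9009 in either genotype, against 8.24% and 9.87%. Gpd1, which makes the glycerol 3-phosphate esterified by Gpam, fell with SR9009 from 303 ± 19.0 to 161 ± 10.5 FPKM in control (adjusted p = 5.24e-06) and from 215 ± 3.16 to 135 ± 5.16 in KO cells (3.32e-05). Gpd1 was also lower in KO than in control cells in DMSO (limma, adjusted p = 1.29e-04) and under SR9009 (0.0103). Idh1, the cytosolic NADPH-yielding isocitrate dehydrogenase, rose with SR9009 by a log2 difference of 0.43 in control (0.00826) and 0.58 in KO cells (9.44e-04), and was lower in KO than in control DMSO (log2 -0.46, 0.00186). Pgd, an NADPH-yielding enzyme of the pentose phosphate pathway, was 1.38-fold higher in KO DMSO (1.62e-05). Pklr, the liver pyruvate kinase and a target of ChREBP, fell with SR9009 in control cells from 126 ± 1.52 to 90.1 ± 13.6 FPKM (0.0133), and its interaction was 0.41 (0.613). Between genotypes Pklr was 1.30-fold higher in KO cells in DMSO (limma, adjusted p = 0.0263) and 1.72-fold higher under SR9009 (1.98e-04).

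Of 14 tested genes of the elongation cycle and of fatty acid activation, 1 was higher and 2 lower in KO cells in DMSO, and 2 and 2 under SR9009. SR9009 raised 1 in control and 3 in KO cells and lowered none by limma's adjusted p, where 4 and 6 of the 14 had an unadjusted p under 0.05 in either direction, as had 21.6% and 22.9% of all tested genes. The shares called between genotypes in DMSO (21.4%) and with SR9009 in control cells (7.14%) lay near those of all tested genes (20.0% and 8.24%), and the others were 28.6% between genotypes under SR9009 (20.4%) and 21.4% with SR9009 in KO cells (9.87%). Cyb5r3, the reductase that passes electrons to the desaturases, rose from 227 ± 9.43 to 331 ± 4.51 FPKM in control (adjusted p = 8.57e-05) and from 236 ± 9.07 to 336 ± 16.1 in KO cells (9.45e-05). Acsl4, which activates polyunsaturated fatty acids, was lower in KO DMSO at 7.67 ± 0.325 against 10.8 ± 0.245 FPKM (0.00118). Ptplad1 (Hacd3), a dehydratase of elongation, was higher in KO cells in DMSO (log2 0.18, 0.0254) and under SR9009 (0.33, 5.83e-04). Acsl5, an acyl-CoA synthetase, rose with SR9009 in KO cells (log2 0.20, 0.0147).

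Of 21 further tested genes of glycerolipids, droplets and lipolysis, 3 were higher and 4 lower in KO cells in DMSO, and 3 and 5 under SR9009. SR9009 raised 2 and lowered 2 in control, and raised 5 and lowered 3 in KO cells. The share called was 33.3% between genotypes in DMSO (20.0% of all tested genes) and 38.1% under SR9009 (20.4%), and with SR9009 was 19.0% in control (8.24%) and 38.1% in KO cells (9.87%). Fitm1, which helps droplets form, was at 34.1 ± 0.410 FPKM in control and 8.85 ± 0.639 in KO DMSO (adjusted p = 8.88e-08). Ces1d, a triglyceride hydrolase, was at 127 ± 6.09 and 49.2 ± 1.56 FPKM (1.28e-08), and carboxylesterases are close copies between which reads could be split. The droplet coats Plin2 and Plin5 were higher, Plin2 at 651 ± 16.5 against 411 ± 33.6 FPKM (9.01e-06) and Plin5 at 17.6 ± 0.868 against 6.63 ± 0.715 (2.43e-06). In KO cells Plin2 rose with SR9009 (log2 0.28, 0.0123) and Plin5 fell (log2 -0.36, 0.0452).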

How the data were processed

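RNA of 12 libraries was read from 1 deposited table with a value per gene and library. The submitters' processing notes name HISAT2, StringTie and build mm9. Tool versions, the annotation and strandedness were not given in the sources used here. Deposited values were taken as FPKM computed by the authors, because library sums differed (538521 to 604449) and the steps between low values depended on gene length. Library totals in reads are not known. The labels spell the compound SR9009 in the protocols and S9009 in the titles, which gave each library its group.

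Values were transformed as log2(FPKM + 1), keeping the 11213 genes that reached 1 FPKM in 3 or more libraries. Group means over all 12 libraries were compared by limma 3.58.1 (R 4.3.3) with trended, robust variances, Benjamini-Hochberg adjustment over all tested genes and a threshold of 0.05. The fit was tested on simulated data. No 2 libraries held equal values for more than 0.0535% of tested genes. Members and gene lists were chosen with earlier results of these data known, so their counts are descriptions. Members called in any comparison, and the most and least abundant of each role, are given per library, and of each other list up to 4 genes with the smallest p are named, besides Nr1d1 and Nr1d2. Cyb5a of the elongation list was not found in the table. Promoters come from RefSeq (GRCm38.p6). The alternatives were another pseudocount (0.1), no filter, quantile normalization, rescaling, the replicate block, fits to 2 groups, leaving out each library and, added after seeing the data, leaving out the 2 shallowest libraries.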

Additional observations from a re-analysis of the deposited data

How the results depend on the processing

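Of 42 called member differences, 29 held under all 19 alternatives, 13 lost the call under at least 1, and 0 changed sign. A further 17 uncalled differences passed under at least 1. The members that rose with SR9009 in KO cells numbered 5, against 2 without the filter on low values, 3 after rescaling and 3 without the 2 shallowest libraries. Those that fell numbered 3, against 5 after quantile normalization and 6 with the replicate block. Members that fell in control cells numbered 2, against 5 without the 2 shallowest libraries. Over all tested genes, SR9009 in control cells gave 924 calls, against 376 in a fit to those 2 groups and 609 without the 2 shallowest libraries. The genotype comparison under SR9009 gave 2283, against 1518 in a fit to those 2 groups. The interaction gave 3, against 1 without the filter, 1 after quantile normalization, 0 with the replicate block and 1 without the 2 shallowest libraries. The cause was not tested.

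Leaving out 1 library at a time gave 3 to 7 members higher in KO DMSO. It gave 2 to 4 that fell with SR9009 in control cells, and 2 to 6 that rose and 2 to 7 that fell in KO cells. Over all genes it gave 530 to 919 calls for SR9009 in control cells, 603 to 1438 in KO cells and 0 to 5 for the interaction.

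Over all tested genes, equal replicate numbers showed no clear pairing of the libraries, which cannot exclude that samples were paired. The 18 same-numbered pairs correlated at -0.11 to 0.12, and 5 of 12 libraries correlated best with their own number. With the replicate block, Mlxipl (adjusted p = 0.0518) and Me1 (0.0546) were no longer called in KO DMSO, Dgat1 passed for SR9009 in control cells (0.0454), and Fasn (0.0469), Pnpla2 (0.0187) and Agpat2 (0.0455) passed in KO cells.

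Depth limits the 3 members below the filter, of which only Mogat1 was called in the fit without it, in both genotype comparisons (adjusted p = 0.00217 and 0.0391). The values hold no read counts, so no counting interval can be given. Gene models on opposite strands could not be separated.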

Other observations

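The FPKM of all 33 members summed to 2461 to 2566 in control DMSO, 2241 to 2579 in control SR9009, 2115 to 2219 in KO DMSO and 2160.1 to 2259.8 in KO SR9009 libraries. Scd1 alone contributed 553 to 1032 FPKM to these sums. Fads1 and Fads2 together stood at 132 to 148 FPKM in control DMSO, 129 to 144 in control SR9009, 88.0 to 94.9 in KO DMSO and 96.3 to 100.6 in KO SR9009. The 3 lipins together stood at 164 to 182, 105 to 151, 153 to 195 and 100.1 to 120.7 FPKM in the same order. Lpin1 made up 20.3% to 22.5% of that lipin sum in control DMSO and 33.3% to 43.9% in KO DMSO, and 10.4% to 20.1% and 12.2% to 23.0% in the SR9009 libraries of the 2 genotypes. The acetyl-CoA carboxylases Acaca and Acacb together stood at 24.7 to 26.9 FPKM in control DMSO, 17.2 to 24.4 in control SR9009, 27.3 to 34.5 in KO DMSO and 24.0 to 29.96 in KO SR9009.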
